A study of Homo sapiens with 6 samples.

Results

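The genes described here are 46 genes of ribosome biogenesis and the nucleolus, taken by their current symbols from the 58884 Ensembl genes counted in HSC-4 cells. All 46 were found in the count tables, and all 46 were among the 15001 genes that passed the filter on low counts. HSC-4 cells are an established human cell line from a squamous carcinoma of the mouth. The cells had been cultured for 24 h with 50 μM DAPT, an inhibitor of γ-secretase, the protease that frees the intracellular domain of Notch receptors (3 libraries), or without DAPT (3 control libraries), and their mRNA was sequenced. The methods give 0.5% DMSO as the vehicle of the controls, while the labels say only control and the deposited count columns carry the unexplained letters GM, so an effect of DMSO cannot be told apart from that of DAPT if the controls received medium alone. The labels do not say whether the libraries of a group came from separate cultures, so the p-values measure only the spread between these libraries.

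Ribosomes are assembled in the nucleolus, where RNA polymerase I transcribes the ribosomal RNA precursor. Small nucleolar ribonucleoproteins (snoRNPs) then guide its chemical modification, and a long series of assembly factors cuts, folds and packs it into the small and the large ribosomal subunit. Growing tumour cells usually make many ribosomes, and the transcription factor MYC is well known to drive many genes of this process.

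The libraries held between 12276313 and 16317672 counted reads, and mitochondrial genes took between 4.31% and 4.88% of the reads in the control libraries and between 3.97% and 4.41% in the DAPT libraries. Levels are given as CPM, the reads of a gene relative to the TMM-scaled total of its library, so every value is a share of the library and not an amount per cell. In such bulk libraries, fewer cells of a kind and less RNA per cell cannot be told apart. Of 8 squamous epithelial markers, 7 were at 183 CPM or more in every library, while *KRT14* was at 3.54 CPM or less, and the 8 summed to between 5049 and 5273 CPM with control and between 3140 and 3313 CPM with DAPT. The markers did not move together, since 6 were called lower, *KRT5* with the highest counts among them, and 2 higher (*EPCAM*, log2 fold change 0.27, and *CDH1*, 0.27). Their part in the results was not tested. The 6 blood cell markers summed to 0.361 CPM or less in each library. The 6 fibroblast markers summed to 552 CPM in control replicate 1 and to between 50.0 and 58.3 CPM in the other 5 libraries, where *COL1A1* made up most of it. *COL1A2* was at 215 CPM in control replicate 1 and at 2.02 CPM or less in the others. Control replicate 1 also lay apart from the others on the second principal component (14.7% of the variance), so the main counts are given without it as well, and the part of these fibroblast transcripts in them was not tested beyond that. Replicate 1 differed most from its group in the DAPT libraries too. The chi-square per degree of freedom of the counts was 5.68 and 5.58 between control replicate 1 and the other controls and 1.58 between those, and 4.08 and 3.90 between DAPT replicate 1 and the other DAPT libraries and 1.81 between those.

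More of the ribosome biogenesis genes were called lower than higher with DAPT, and the differences were small. With edgeR's quasi-likelihood test and an adjusted p limit of 0.05, 18 of the 46 genes (39.1%) were called lower and 1 (2.17%) was called higher. Over all tested genes, 18.0% were called lower and 17.2% higher. Without control replicate 1, 17 members were called lower and 1 higher, against 19.1% and 18% of all genes in that fit. Without DAPT replicate 1 the counts were 18 and 1, against 15.6% and 13.7%. With library size alone as the scale, 13 members were called lower and 1 higher, and the shares over all genes became 14.4% and 23%. The median log2 fold change of the members was -0.12, against 0.01 for all tested genes. Of all tested genes 48.7% lay below 0, and of the 46 members 37 did. The members' values ran from -0.64 to 0.24 and 0 of the 46 were changed by 2-fold or more. Tested against a change of 1.2-fold, 3 members were called, namely *FBL*, *TCOF1* and *BOP1*, and all 3 were lower with DAPT. That test called 5.67% of all genes lower and 2.82% higher, so a count of 3 among 46 was near the background. In 21 members (45.7%) the 3 DAPT values all lay below the 3 control values, and in 2 members (4.35%) they all lay above. Over all tested genes these shares were 22.7% and 23.6%.

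Summed over the 46 genes, the level was 4357, 4381 and 4421 CPM in the control libraries and 3987, 3837 and 3814 CPM in the DAPT libraries. The groups did not overlap, and the means differed by -11.6%. With *NCL* and *NPM1* left out, the sums were 2720, 2793 and 2808 CPM with control and 2543, 2474 and 2477 CPM with DAPT. The members varied little between replicates, with a median coefficient of variation of 4.60% in the control and 4.32% in the DAPT libraries. Over all tested genes it was 6.87% and 6.23%, but these include genes with few reads, whose counts vary more. Neither this comparison nor the shares of genes called were matched for read number. SEs (standard errors) of the log2 fold changes were between 0.05 and 0.10 except for *NOP2* (0.31) and *PPAN* (0.19). These were the members with the fewest reads, and the other 44 had at least 181 reads in every library.

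**Figure D1:**
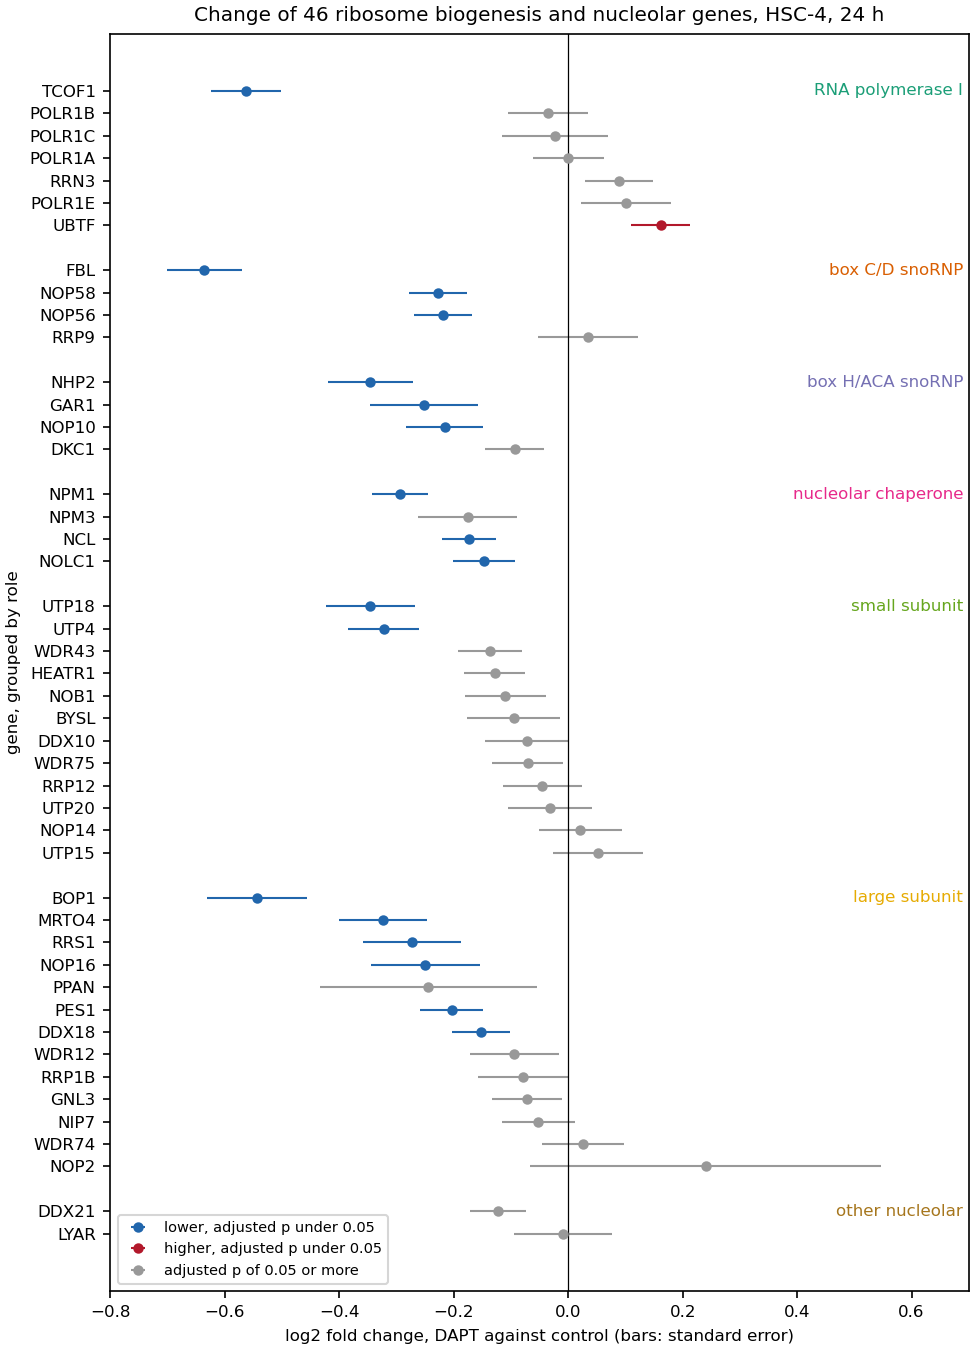
Log2 fold change of each of the 46 genes (x axis, DAPT against control, 3 libraries each), grouped by role on the y axis, with points for the estimates of edgeR's fit and bars for the SE. Blue points are the 18 genes called lower and the red point is *UBTF*, the gene called higher. *FBL*, *TCOF1* and *BOP1* lie farthest to the left, between -0.64 and -0.54.

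Promoter sequences were compared with the changes. RefSeq promoter windows (GRCh38.p14), from 250 bases before to 50 bases after the start site, were at hand for 37 of the 46 members. *TCOF1*, *BOP1*, *NOP58*, *NOLC1*, *RRS1* and *DDX18*, all called lower, had no window and are not in this comparison. The motif CACGTG, the palindromic E-box that MYC with its partner MAX, and other factors such as USF1, can bind, was in the windows of 16 of these 37 genes (43.2%). It was in those of 12.2% of 11073 tested genes with a window and of 8.77% of all 27305 genes with a window. Among 118 other ribosome biogenesis genes with a window, from a further list described below, 26.3% held it. Of the 16 members with the motif, 7 were called lower and 0 higher in edgeR's test (median log2 fold change -0.13). Of the 21 with a window but without the motif, 5 were called lower and 1 higher (median -0.09). Over all tested genes, 18.0% were called lower and 17.2% higher. Called and uncalled members were thus found with and without the motif, and no test was made. The presence of these letters does not show that a factor was bound in these cells.

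The windows of the 4 called genes with the largest decreases that hold CACGTG, and that of *UBTF*, the gene called higher, are printed here from 250 bases before to 30 bases after the start site, in the direction of transcription, to show where the motif sits. They belong to *FBL* (chr19:39846350-39846629, minus strand), *UTP18* (chr17:51260296-51260575, plus strand), *MRTO4* (chr1:19251555-19251834, plus strand), *UTP4* (chr16:69132399-69132678, plus strand) and *UBTF* (chr17:44220853-44221132, minus strand). Capitals mark CACGTG, which reads the same on both strands, and the *UBTF* stretch holds none.
FBL: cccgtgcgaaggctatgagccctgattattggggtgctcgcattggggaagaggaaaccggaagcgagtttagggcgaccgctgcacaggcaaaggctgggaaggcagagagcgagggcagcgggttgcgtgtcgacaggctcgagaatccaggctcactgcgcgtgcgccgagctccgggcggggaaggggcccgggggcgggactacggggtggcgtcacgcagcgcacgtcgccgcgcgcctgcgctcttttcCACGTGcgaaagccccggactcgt
UTP18: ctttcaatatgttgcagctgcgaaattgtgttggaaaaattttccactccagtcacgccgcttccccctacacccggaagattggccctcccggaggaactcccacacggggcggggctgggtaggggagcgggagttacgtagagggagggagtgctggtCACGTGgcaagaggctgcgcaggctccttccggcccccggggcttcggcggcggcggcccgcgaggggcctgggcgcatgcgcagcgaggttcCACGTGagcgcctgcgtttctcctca
MRTO4: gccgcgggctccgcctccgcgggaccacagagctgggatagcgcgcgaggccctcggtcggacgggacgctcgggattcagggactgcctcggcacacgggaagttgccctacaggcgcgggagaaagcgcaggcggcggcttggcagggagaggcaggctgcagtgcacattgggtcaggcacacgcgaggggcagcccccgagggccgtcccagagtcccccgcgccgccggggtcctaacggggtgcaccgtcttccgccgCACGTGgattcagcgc
UTP4: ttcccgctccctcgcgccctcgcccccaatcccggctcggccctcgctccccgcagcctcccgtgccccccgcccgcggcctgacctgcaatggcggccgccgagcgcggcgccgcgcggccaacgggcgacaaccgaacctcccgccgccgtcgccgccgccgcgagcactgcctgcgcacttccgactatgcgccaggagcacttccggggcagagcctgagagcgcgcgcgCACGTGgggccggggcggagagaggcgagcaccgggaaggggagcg
UBTF: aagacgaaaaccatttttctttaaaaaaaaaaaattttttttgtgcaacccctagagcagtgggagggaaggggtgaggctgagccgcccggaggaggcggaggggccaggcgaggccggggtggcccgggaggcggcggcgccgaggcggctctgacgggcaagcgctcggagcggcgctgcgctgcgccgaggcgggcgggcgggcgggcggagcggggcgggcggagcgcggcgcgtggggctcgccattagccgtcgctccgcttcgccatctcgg

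In *FBL* the motif began 6 bases after the start site, in *MRTO4* 14 bases after it and in *UTP4* at position -16, counting the start base as 0. *UTP18* held it at position -89 and again at 4. Across the 16 members there were 18 matches, and 15 of them began within 50 bases of the start site. Among the 1644 matches in the windows of tested genes, 37.8% did. The variant CACGCG (or CGCGTG on the other strand) was in 32.4% of the members' windows and in 22% of those of tested genes, and the ETS-type core CCGGAA (or TTCCGG) in 54.1% and 34%. Each motif was searched on both strands, and matches of different motifs may overlap.

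**Figure D2:**
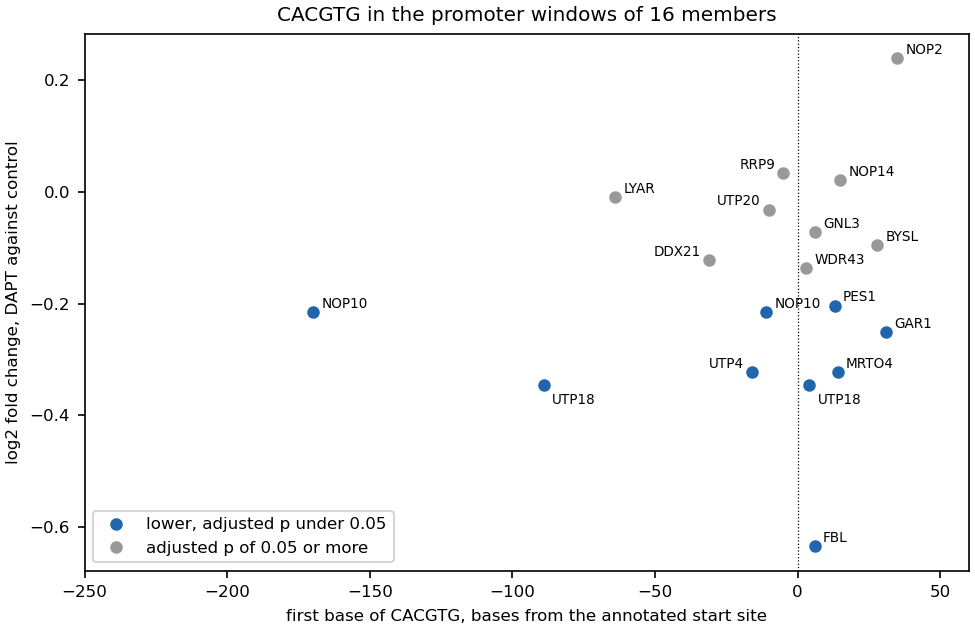
Position of the first base of each CACGTG in the members' promoter windows (x axis, bases from the annotated start site, which is 0) against the gene's log2 fold change (y axis). Each point is 1 of 18 matches in 16 genes, blue where the gene was called lower, and most points lie within 50 bases of the start site at every size of change.

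The box C/D snoRNP is the enzyme that adds methyl groups to the ribose of ribosomal RNA. Of the 4 members with this role, 3 (75%) were called lower with DAPT and 0 higher, against 18.0% and 17.2% of all tested genes. The 3 were the methyltransferase and the 2 scaffold genes. *SNU13*, a gene of this particle outside the 46, was also called lower in edgeR's test (log2 fold change -0.19, adjusted p = 0.0219). *FBL* encodes fibrillarin, its methyltransferase, and lies on chromosome 19 from 39834458 to 39846379. *FBL* was at 74.9, 68.1 and 79.2 CPM in the control libraries and at 46.3, 46.9 and 49.8 CPM in the DAPT libraries, so that all DAPT values were well below the lowest control value. It had the largest decrease of the 46 genes, at -0.64 on the log2 scale (SE 0.06, adjusted p = 1.15e-07). *NOP58*, a scaffold subunit, was at 140, 135 and 131 CPM with control and at 119, 112 and 116 CPM with DAPT (log2 fold change -0.23, adjusted p = 0.00145). *NOP56*, the other scaffold subunit, was at 164, 166 and 174 CPM with control and at 151, 141 and 141 CPM with DAPT (log2 fold change -0.22, adjusted p = 0.00189). For both scaffold genes the groups did not overlap. *RRP9*, which binds the U3 snoRNA within this type of particle, was at 18.4, 21.8 and 22.4 CPM with control and 20.7, 22.3 and 20.9 CPM with DAPT. Its groups overlapped (log2 fold change 0.03, SE 0.09, adjusted p = 0.794), and without control replicate 1 the value was -0.05.

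The size of the decrease was then compared within complexes, in pairs chosen after the values of the genes were seen. Ratios between genes of 1 complex within a library do not depend on how the library is scaled, and 12 such pairs were compared in the box C/D core, the box H/ACA complex and the PeBoW complex. The log2 ratio of *FBL* to *NOP56* reads was -1.19 ± 0.09 (SD, n = 3) with control and -1.60 ± 0.10 (SD, n = 3) with DAPT. For *FBL* to *NOP58* it was -0.87 ± 0.13 (SD, n = 3) and -1.28 ± 0.07 (SD, n = 3). The groups did not overlap in either ratio, whereas that of *NOP56* to *NOP58* was 0.31 ± 0.09 (SD, n = 3) and 0.32 ± 0.04 (SD, n = 3). With 3 against 3 libraries, the exact two-sided permutation test cannot go below p = 0.1, which both *FBL* ratios reached (0.24 after Benjamini-Hochberg adjustment over the 12 pairs). Of the 12 pairs, 5 did not overlap between the groups. No such share was computed for pairs of other genes. Among single tested genes, the DAPT values all lay below the controls in 22.7% and all above in 23.6%.

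**Figure D3:**
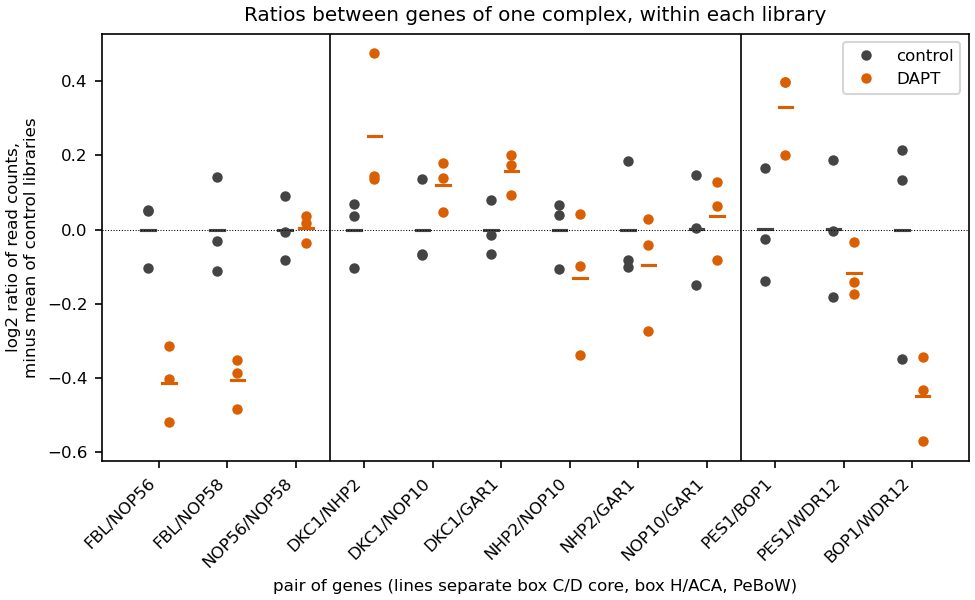
Log2 ratio of read counts between pairs of genes of the same complex (x axis), with the mean of the control libraries subtracted (y axis). Points are the 3 control and 3 DAPT libraries and short lines their means, and the *FBL* ratios lie about 0.41 lower with DAPT while the *NOP56* to *NOP58* ratio stays near 0.

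Box H/ACA snoRNPs convert uridines of ribosomal RNA to pseudouridine and share their proteins with telomerase. Of their 4 protein genes, 3 (75%) were called lower and 0 higher, against 18.0% and 17.2% of all tested genes. The 4th, the catalytic subunit, was not called. *NHP2* was at 58.5, 66.8 and 62.9 CPM with control and at 43.3, 53.0 and 51.9 CPM with DAPT, without overlap (log2 fold change -0.35, SE 0.08, adjusted p = 0.00124). *GAR1* was at 16.1, 15.3 and 17.6 CPM with control and at 13.6, 13.5 and 13.9 CPM with DAPT (log2 fold change -0.25, adjusted p = 0.0414). *NOP10* was at 91.4, 106 and 111 CPM with control and 89.6, 92.9 and 82.4 CPM with DAPT (log2 fold change -0.22, adjusted p = 0.0177), and its groups overlapped because control replicate 1 lay below DAPT replicate 2. *DKC1*, which encodes dyskerin, the pseudouridine synthase itself, was at 104, 105 and 109 CPM with control and at 102, 99.1 and 96.3 CPM with DAPT. All its DAPT values lay below the control values, but by little (log2 fold change -0.09, SE 0.05, adjusted p = 0.167). The log2 ratio of *DKC1* to *NHP2* reads was 0.76 ± 0.09 (SD, n = 3) with control and 1.01 ± 0.19 (SD, n = 3) with DAPT, and that of *DKC1* to *GAR1* 2.70 ± 0.07 (SD, n = 3) and 2.86 ± 0.06 (SD, n = 3). For both ratios the groups did not overlap (exact permutation p = 0.1 each, the smallest possible, and 0.24 after Benjamini-Hochberg adjustment over the 12 pairs). That of *DKC1* to *NOP10* was 0.05 ± 0.12 (SD, n = 3) and 0.17 ± 0.07 (SD, n = 3), with overlap (exact permutation p = 0.2). The ratios of *NHP2* to *NOP10*, *NHP2* to *GAR1* and *NOP10* to *GAR1* overlapped as well. The call of *GAR1* held in 1 of the 6 fits that left out a library and that of *NOP10* in 3, while *NHP2* was called in all 6. *GAR1* had an adjusted p of 0.0526 without control replicate 1 and 0.128 in DESeq2. With gene length and GC content as an offset, *NOP10* had an adjusted p of 0.145.

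Among the 7 genes for RNA polymerase I and its factors, 1 was called lower and 1 higher (14.3% each). The shares over all tested genes were 18.0% and 17.2%. The 7 genes summed to 461, 480 and 495 CPM with control and 472, 450 and 455 CPM with DAPT, with overlap. *TCOF1* (chromosome 5, 150357629 to 150400308) encodes treacle, a nucleolar protein needed for ribosomal RNA transcription and mutated in Treacher Collins syndrome. It was at 113, 132 and 127 CPM with control and at 89.6, 81.3 and 80.1 CPM with DAPT, again without overlap, which gave the second largest decrease of the 46 genes (log2 fold change -0.56, SE 0.06, adjusted p = 3.94e-07). *UBTF* (chromosome 17, 44205033 to 44221626) encodes UBF, which holds ribosomal DNA in an open state. *UBTF* rose from 134, 141 and 146 CPM with control to 161, 152 and 158 CPM with DAPT, all above the controls (log2 fold change 0.16, SE 0.05, adjusted p = 0.0177). It was the only one of the 46 genes called higher, and leaving out DAPT replicate 3 ended the call (5 of the 6 such fits kept it).

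None of the 4 polymerase subunit genes was called in edgeR's test, at an adjusted or an unadjusted p under 0.05. *POLR1A*, the largest subunit, was at 70.4, 70.0 and 78.3 CPM with control and at 76.8, 67.2 and 74.4 CPM with DAPT (log2 fold change 0.00, SE 0.06), and its sign turned in 9 of 16 alternative fits. *POLR1B*, the second largest subunit, was at 39.2, 37.8 and 38.9 CPM with control and 36.1, 39.1 and 37.9 CPM with DAPT (log2 fold change -0.03, SE 0.07). *POLR1C*, shared with RNA polymerase III, was at 19.9, 19.2 and 20.6 CPM with control and 21.0, 20.9 and 16.7 CPM with DAPT (-0.02, SE 0.09). In these 3 subunit genes the groups overlapped. *POLR1E* was at 29.7, 25.9 and 28.5 CPM with control and 29.8, 29.0 and 31.5 CPM with DAPT (log2 fold change 0.10, adjusted p = 0.336). The groups of *POLR1E* overlapped too. *RRN3*, the factor that brings the polymerase to its promoter, was at 54.7, 54.4 and 55.1 CPM with control and 58.1, 60.2 and 56.2 CPM with DAPT. Its groups did not overlap, but the test did not call it (log2 fold change 0.09, adjusted p = 0.264), and reads shared with its 4 named pseudogenes were not counted.

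**Figure D4:**
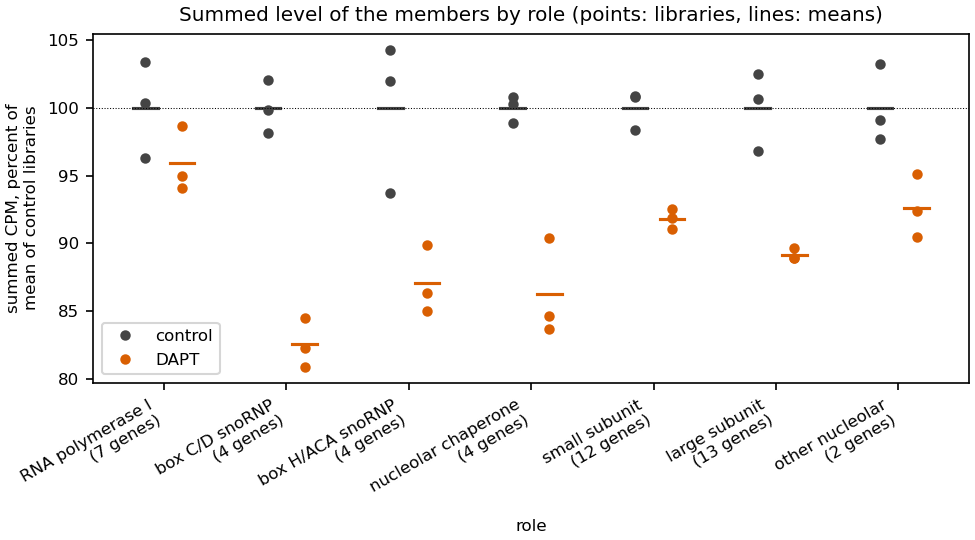
Summed CPM of the members by role (x axis, number of genes in brackets), as a percent of the mean of the control libraries (y axis, which does not start at 0). Points are libraries and lines means, and the control and DAPT libraries overlap for the 7 RNA polymerase I genes and do not overlap for the other 6 roles.

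Of the 4 nucleolar chaperone genes, 3 (75%) were called lower and 0 higher, against 18.0% and 17.2% of all tested genes. On the scale of CPM per kilobase of exon, the control means were 186 for *NOP10*, 177 for *NPM1*, 137 for *NCL* and 53.2 for *NOLC1*, the 4 highest levels among the members, while *NOP2* (0.251) was lowest. *NPM1*, nucleophosmin, which chaperones histones and ribosomal particles, was at 702, 673 and 659 CPM with control and at 578, 544 and 536 CPM with DAPT. The difference of -0.29 on the log2 scale (SE 0.05, adjusted p = 6.66e-05) came with no overlap between the groups. The annotation names 49 pseudogenes after *NPM1*, and reads that also fit one of these were not counted. *NCL*, nucleolin, was at 935, 915 and 954 CPM with control and at 866, 818 and 801 CPM with DAPT (log2 fold change -0.17, adjusted p = 0.00719). *NOLC1*, a carrier of snoRNPs, was called lower (-0.15, adjusted p = 0.0379), but 1 DAPT value lay within the control range, and the call held in 2 of the 6 fits that left out a library. The adjusted p was 0.0521 with the replicate block, 0.0513 in DESeq2 and 0.138 with library size alone. *NPM3*, a shorter relative of *NPM1*, had a log2 fold change of -0.18 (adjusted p = 0.12), and of -0.23 (adjusted p = 0.0371) without control replicate 1.

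Assembly factors of the small subunit belong mostly to the SSU processome, the particle that forms around the 5′ part of the ribosomal RNA precursor. Of 12 genes, 2 (16.7%) were called lower and 0 higher, against 18.0% and 17.2% of all tested genes. Of the 12 values, 10 lay below 0, against 48.7% of all tested genes, and the median log2 fold change of the 12 was -0.08. *UTP18* was at 36.8, 41.0 and 38.3 CPM with control and at 28.3, 29.9 and 33.3 CPM with DAPT (log2 fold change -0.35, SE 0.08, adjusted p = 0.0015). *UTP4*, also known as cirhin, was at 69.3, 71.6 and 70.0 CPM with control and at 52.4, 60.6 and 55.7 CPM with DAPT (-0.32, SE 0.06, adjusted p = 3.34e-04). For both genes the groups did not overlap, and both calls held in all 6 fits that left out a library. The other 10 had log2 fold changes from -0.14 (*WDR43*) and -0.13 (*HEATR1*) over -0.11 (*NOB1*), -0.10 (*BYSL*), -0.07 (*DDX10* and *WDR75*), -0.04 (*RRP12*) and -0.03 (*UTP20*) to 0.02 (*NOP14*) and 0.05 (*UTP15*). Of these 10, 0 were called at an adjusted p under 0.05 in edgeR's test or in DESeq2, and *WDR43* and *HEATR1* had an unadjusted p under 0.05 in edgeR's test. *HEATR1* and *WDR43*, which belong with *UTP4* to the t-UTP subcomplex, had DAPT values that all lay below the control values, with adjusted p of 0.0654 and 0.0617. With the offset for GC content and gene length these became 0.00569 and 0.0293. Of the other t-UTP genes among the members, *UTP15* (adjusted p = 0.639) and *WDR75* (adjusted p = 0.402) had groups that overlapped.

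Of 13 factors for the large subunit, 6 (46.2%) were called lower and 0 higher, against 18.0% and 17.2% of all tested genes. The median log2 fold change of the 13 was -0.15. *BOP1* was at 39.3, 50.9 and 49.3 CPM with control and at 31.2, 30.9 and 33.4 CPM with DAPT (log2 fold change -0.54, SE 0.09, adjusted p = 6.51e-05). *BOP1* forms the PeBoW complex with *PES1* and *WDR12*, which is needed to process the precursor of the large subunit's RNA. *PES1* was at 85.4, 89.7 and 93.8 CPM with control and at 79.8, 78.8 and 74.5 CPM with DAPT (log2 fold change -0.20, SE 0.06, adjusted p = 0.00671). *WDR12* was at 38.7, 35.9 and 32.8 CPM with control and 32.6, 35.5 and 32.8 CPM with DAPT, with overlap (log2 fold change -0.09, SE 0.08, adjusted p = 0.368). Thus *BOP1* and *PES1* passed the test and *WDR12* did not. The log2 ratio of *PES1* to *BOP1* reads was 0.95 ± 0.15 (SD, n = 3) with control and 1.29 ± 0.11 (SD, n = 3) with DAPT. Its groups did not overlap (exact permutation p = 0.1, the smallest possible, and 0.24 after Benjamini-Hochberg adjustment over the 12 pairs). The log2 ratio of *BOP1* to *WDR12* was 0.02, 0.50 and 0.59 with control and -0.06, -0.20 and 0.03 with DAPT. Its difference of -0.45 was the largest in size of the 12 pairs, and the groups overlapped only through control replicate 1 (exact permutation p = 0.2, where 0.1 is the smallest possible). That of *PES1* to *WDR12* overlapped as well (exact permutation p = 0.5).

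Among the other large subunit factors, *MRTO4*, which holds the place of a stalk protein on the maturing particle, was at 26.3, 29.0 and 26.8 CPM with control and at 22.4, 21.3 and 21.9 CPM with DAPT. The log2 fold change, -0.32, had an SE of 0.08 and an adjusted p of 0.00235. *RRS1*, which helps to bring in the 5S ribonucleoprotein, was at 24.2, 26.0 and 28.4 CPM with control and at 19.6, 22.2 and 23.3 CPM with DAPT (log2 fold change -0.27, adjusted p = 0.0167). In both genes the groups did not overlap, but the adjusted p of *RRS1* was 0.0611 with the offset for GC content and gene length, and another gene model covered 11.3% of its exonic bases. *NOP16* (log2 fold change -0.25, adjusted p = 0.045) and the helicase gene *DDX18* (-0.15, adjusted p = 0.0221) were called as well. The call of *NOP16* held in 2 and that of *DDX18* in 3 of the 6 fits that left out a library. *RRP1B*, *GNL3*, *NIP7* and *WDR74* had log2 fold changes of -0.08, -0.07, -0.05 and 0.03 and were not called. *NOP2*, an RNA methyltransferase, and *PPAN* cannot be read well from these counts, because reads that overlap 2 genes on a strand were not counted. Another gene model on the same strand covered 54.4% of the exonic bases of *NOP2* and 49.2% of those of *PPAN*, whose neighbours include the read-through gene *PPAN-P2RY11*. Their log2 fold changes were 0.24 (SE 0.31) and -0.24 (SE 0.19). Of the remaining nucleolar proteins, the RNA helicase gene *DDX21* had a log2 fold change of -0.12 (adjusted p = 0.0525, and 0.00693 with the offset) and *LYAR* of -0.01.

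**Figure D5:**
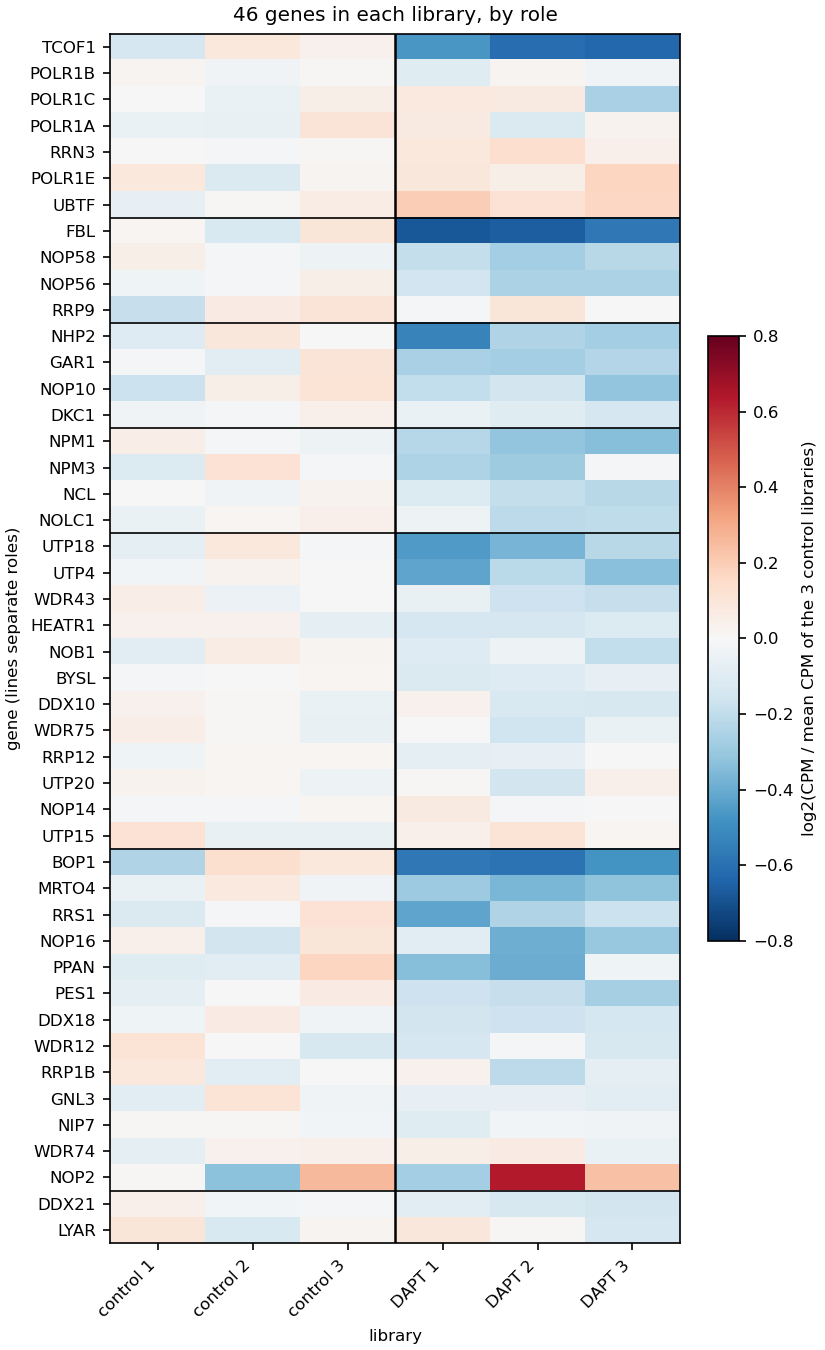
Level of each of the 46 genes (y axis, lines separate roles) in each library (x axis), as log2 of CPM over the mean CPM of the 3 control libraries, blue for lower and red for higher. The DAPT columns are blue for most genes of the box C/D, box H/ACA and chaperone roles and deepest for *FBL*, *TCOF1* and *BOP1*, while *NOP2*, with at most 25 reads in a library, scatters.

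Some members also carry snoRNA genes in their introns. By the coordinates of the count tables, 8 members had at least 1 snoRNA gene within their bounds on the same strand, namely *NCL*, *NOP56*, *NOP58*, *DKC1*, *WDR43*, *GNL3*, *PPAN* and *POLR1C*. All 8 had log2 fold changes below 0, with 3 called lower and a median of -0.16. Of the 38 members without one, 29 lay below 0, 15 were called lower and 1 was called higher, with a median of -0.10. The shares called lower were 37.5% and 39.5%, against 18.0% of all tested genes. Of all tested genes, 48.7% lay below 0. The median GC content of the members' exons was 48.6%, against 48.2% for all tested genes.

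The rest of the pathway was read from the same fit. A further list of 130 genes was written from general knowledge, and all 130 were tested. It held the remaining polymerase I subunits and factors, further snoRNP genes, subunit assembly factors and the RNA exosome. With DAPT, 21 (16.2%) were called lower and 4 (3.08%) higher, against the 18.0% and 17.2% of all tested genes, so the share called lower was near the background and the share called higher below it. Leaving out single libraries gave between 10 and 30 genes called lower and between 0 and 5 called higher, with 10 lower without DAPT replicate 2, 12 lower and 0 higher without control replicate 2, and 30 lower without control replicate 1. The median log2 fold change was -0.05, and the list summed to 7306, 7476 and 7464 CPM with control and 7236, 7111 and 7076 CPM with DAPT. The sums did not overlap and differed by -3.71% between the means.

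The 5 largest decreases among the called genes of this list were those of *EXOSC5* (log2 fold change -0.52, SE 0.13), *EXOSC7* (-0.49, SE 0.08), *RCL1* (-0.35), *EMG1* (-0.34) and *NLE1* (-0.33). *EXOSC5* and *EXOSC7* encode ring subunits of the exosome, which trims ribosomal RNA from its 3′ end. *EXOSC7* fell from 39.6 ± 1.98 to 28.2 ± 2.52 CPM (SD, n = 3 each, adjusted p = 5.22e-05), and another gene model covered 13.6% of its exonic bases. *EMG1* is a methyltransferase of the small subunit's RNA, and *RCL1* takes part in the early cuts of the precursor. The box C/D snoRNP genes *RUVBL2* (-0.21), *SNU13* (-0.19) and *RUVBL1* (-0.18) were also called lower. That made 3 of the 6 listed genes of that role (50%), against 18.0% of all tested genes. In the fits without 1 library, *NLE1* was called in 4 of 6, *SNU13* in 3, and *RUVBL1* and *RUVBL2* in 2 each, while *EXOSC5*, *EXOSC7*, *RCL1* and *EMG1* were called in all 6. The genes called higher were *DIMT1* (log2 fold change 0.28), *EXOSC6* (0.25), *REXO4* (0.18) and *RSL24D1* (0.14). Among the 6 fits that left out a library, *EXOSC6* was called in 4, *RSL24D1* in 2, and *DIMT1* and *REXO4* in 1 each. In DESeq2 only *EXOSC6* of these 4 was called (adjusted p = 0.0403), with 0.124 for *DIMT1*, 0.0918 for *REXO4* and 0.0976 for *RSL24D1*. *EXOSC6* encodes a further ring subunit of the exosome, so the called subunits of this ring differed in direction.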

How the data were processed

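Poly(A) RNA of 6 libraries was sequenced in single-end reads. The authors trimmed reads with Trim Galore, aligned them to GRCh38 with HISAT2 and, per the file headers, counted them per gene with featureCounts 1.6.3 on Ensembl 96 exons. The deposited values are raw counts, stranded, and reads that fit several places or genes were left out. The submitters' processing notes also name HTSeq and DESeq2. Groups came from the sample labels.

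Genes were filtered with filterByExpr (minimum count 10), scaled by TMM and tested with edgeR 4.0.16 in R 4.3.3 by the quasi-likelihood test, with Benjamini-Hochberg adjustment over 15001 genes. A gene was called at an adjusted p under 0.05, with no limit on the fold. Alternatives used DESeq2 1.42.0, limma 3.58.1, other scalings, filters and thresholds, a replicate block, an offset for gene length and GC content, and 6 fits that each left out 1 library. Scripts were tested on simulated data.

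All 46 members could be named. Values in every library were given for the called genes with the 10 largest decreases or increases and for the snoRNP, PeBoW and polymerase I genes, and of the further list the 5 largest called changes in each direction were named. Others were named after their values were seen. The members and lists were chosen with earlier results of these data known. A count of 3 reads corresponded to between 0.187 and 0.249 CPM, and this covers counting error only.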

Additional observations from a re-analysis of the deposited data

How the results depend on the processing

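The number of members called lower lay between 12 and 20 in all settings but the test against a 1.2-fold change, which called 3. The share of all genes called lower moved as well, from 9.36% with no filter to 19.1%, and was 5.67% against 1.2-fold, so 3 members was near the background. Leaving out 1 library gave 13 to 18 lower and 0 to 1 higher, with 0 higher without DAPT replicate 3, against 14.3% to 19.1% lower and 12.4% to 18% higher over all genes, and a median log2 fold change from -0.134 to -0.108. At an adjusted p under 0.01 and against 1.2-fold, 0 members were called higher by edgeR. With library size alone the members' median was -0.0693, while that of all genes was 0.0564. In the further list of 130 genes, library size alone gave 11 lower and 11 higher with a median of 0.000424, a p under 0.01 gave 8 and 0, the 1.2-fold test 1 and 0, no filter 2 higher and DESeq2 1 higher. The offset for GC content and length gave a median of -0.0296 there, and with the replicate block as well -0.0301 and 7 higher. Leaving out 1 library gave 10 to 30 lower, 0 to 5 higher and medians from -0.0647 to -0.0412. The causes were not tested.

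The labels do not say that a replicate number marks a shared batch, and same-numbered libraries had correlations of deviations of only 0.0173, 0.0252 and 0.00382, so the numbers were not taken as pairs. However, 4 of 6 libraries lay nearest to their own number, a hint of pairing from the data. With the replicate block, 17 members were called lower and 1 higher, against 18.2% and 17.1% of all genes.

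Signs turned only for uncalled members. The log2 fold change of *POLR1A* became -0.00366 with RLE factors, -0.00643 with upper quartile factors, -0.000975 with 10 counts in every library, -0.00414 in DESeq2 and -0.000599 with the replicate block. With library size alone it was 0.0122 for *POLR1B*, 0.0241 for *POLR1C*, 0.0152 for *UTP20*, 0.00191 for *RRP12* and 0.0372 for *LYAR*, for which the offset gave 0.0176 without and 0.0195 with the block. Leaving out 1 library gave values from -0.0406 to 0.0549 for *POLR1A*, -0.0800 to 0.0777 for *POLR1C*, -0.0547 to 0.0824 for *RRP9*, -0.0649 to 0.0246 for *UTP20*, -0.0047 to 0.0408 for *NOP14*, -0.0115 to 0.0616 for *WDR74*, -0.00355 to 0.459 for *NOP2* and -0.0724 to 0.0504 for *LYAR*.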
